A study of Macaca fascicularis with 8 samples.

Results

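Ephrins, semaphorins, SLITs and netrins are extracellular cues, and the Eph, plexin, neuropilin, ROBO, DCC and UNC5 proteins are the receptors that read them. A set of 56 such genes was followed in embryonic stem cells (ESCs) of the cynomolgus monkey, Macaca fascicularis, grown as dome-shaped or as primed colonies. A gene was taken from the table row that carried its symbol (22 genes) or else from the row whose first protein match named it at 85% identity or more (29 genes), so that 51 of the 56 were found among 33121 genes. Among rows taken by protein match the lowest identity was 93.8% (SLIT2). SLIT3, at 81.6%, fell outside the minimum. The first match of the rows for EFNB3, SEMA3E, SEMA6D and NRP2 gave no protein name, and these genes were paired by a later match. The values of these 5 genes are given separately and enter no count unless stated.

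Dome-shaped ESCs (4 libraries) grew in the medium NHSMV, a knockout DMEM base with N2 supplement, insulin, human LIF, bFGF, TGF-β1 and vitamin C plus kinase inhibitors: PD0325901 (MEK), CHIR99021 (GSK3), SB202190 and SB203580 (p38) and SP600125 (JNK). Primed ESCs (4 libraries) formed flat colonies in CESM, a mixture of PSGro and conventional monkey ESC medium. The labels rate passage as single cells as strong for dome-shaped and weak for primed ESCs. Medium, morphology and passage rating coincide with the group and cannot be told apart. The titles carry a number after CES whose meaning the labels do not give: dome-shaped replicates 1 and 2 share one number, as do primed replicates 3 and 4. No label says whether the libraries came from separate cultures or animals, so p-values measure the spread between libraries, which may be technical.

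Polyadenylated RNA was sequenced, and the authors deposited RPKM, read counts scaled by gene length and library size. Levels can be compared between genes only roughly, since some rows are short and rows matched to the same gene can differ. For SEMA6A, a row of 471 bases averaged 6.28 RPKM in dome-shaped ESCs. A row of 3632 bases, named SEMA6A only by later matches, averaged 99.3 RPKM. Rankings of genes and shares of a family's sum carry this limit. The low values implied 14400000 to 18080000 reads per library, and 15141 to 15830 genes per library reached 1 RPKM. The pluripotency genes SOX2, at 219 to 322 RPKM in dome-shaped and 172 to 273 RPKM in primed libraries, and LIN28A, at 733 to 954 RPKM in dome-shaped and 964 to 1183 RPKM in primed libraries, were high in all 8. Of 8 pluripotency genes with a row, none was higher and LIN28B, DNMT3B, ZFP42 and TDGF1 were lower. This is by the limma test described below, at an adjusted p under 0.05, where 6.38% of all genes tested were higher and 7.96% lower. NANOG, at 53.4 to 113 RPKM in dome-shaped and 116 to 163 RPKM in primed libraries, did not overlap but was not called (adjusted p = 0.0836). POU5F1 was paired with no row. Dome-shaped replicate 4 stood apart from the other dome-shaped libraries for several of the genes below, and each result that turns on it is given with and without it. In bulk RNA, fewer cells of a type and less RNA per cell cannot be told apart.

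Eph receptors are tyrosine kinases that bind ephrins on neighbouring cells. A-class ephrins are held in the membrane by a lipid anchor, B-class ephrins span it, and both partners can signal, which sorts cells into compartments and steers axons. Semaphorins signal through plexins, the secreted class 3 members mostly with a neuropilin as co-receptor. SLITs act on ROBO receptors, and netrin 1 attracts through DCC and repels through UNC5 receptors. Outside the nervous system the same cues act on epithelia and blood vessels.

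More guidance genes were lower than higher in dome-shaped ESCs. Of the 51 genes, 47 had at least 1 RPKM in at least 4 libraries and were tested with limma on log2(RPKM + 1). At an adjusted p under 0.05, 2 were higher (EFNA5 and PLXNC1) and 11 were lower (EPHA1, EPHB4, EFNA1, EFNA2, SEMA3A, SEMA3F, SEMA4C, SEMA6B, PLXNB2, PLXND1 and UNC5B). Over all 15597 genes tested, 6.38% were higher and 7.96% lower. The median log2 fold change, dome-shaped minus primed, was -0.20 over the 47 and 0.03 over all genes tested, and it was below 0 for 28 of the 47, against 46.8% of all genes tested. The dome-shaped and primed values did not overlap for 12 of the 47, against 22.2% of all genes tested. Dome-shaped was above in 1 and below in 11 of the 47, against 11.5% and 10.7% of all genes tested. Among the 25 ligands tested 1 was higher and 6 lower, and among the 22 receptors 1 and 5. The calls of EPHA1, SEMA3A, SEMA3F, SEMA4C, SEMA6B, PLXNB2 and UNC5B held whichever single library was left out. The other 6 called genes lost theirs without at least 1 library.

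**Figure D1:**
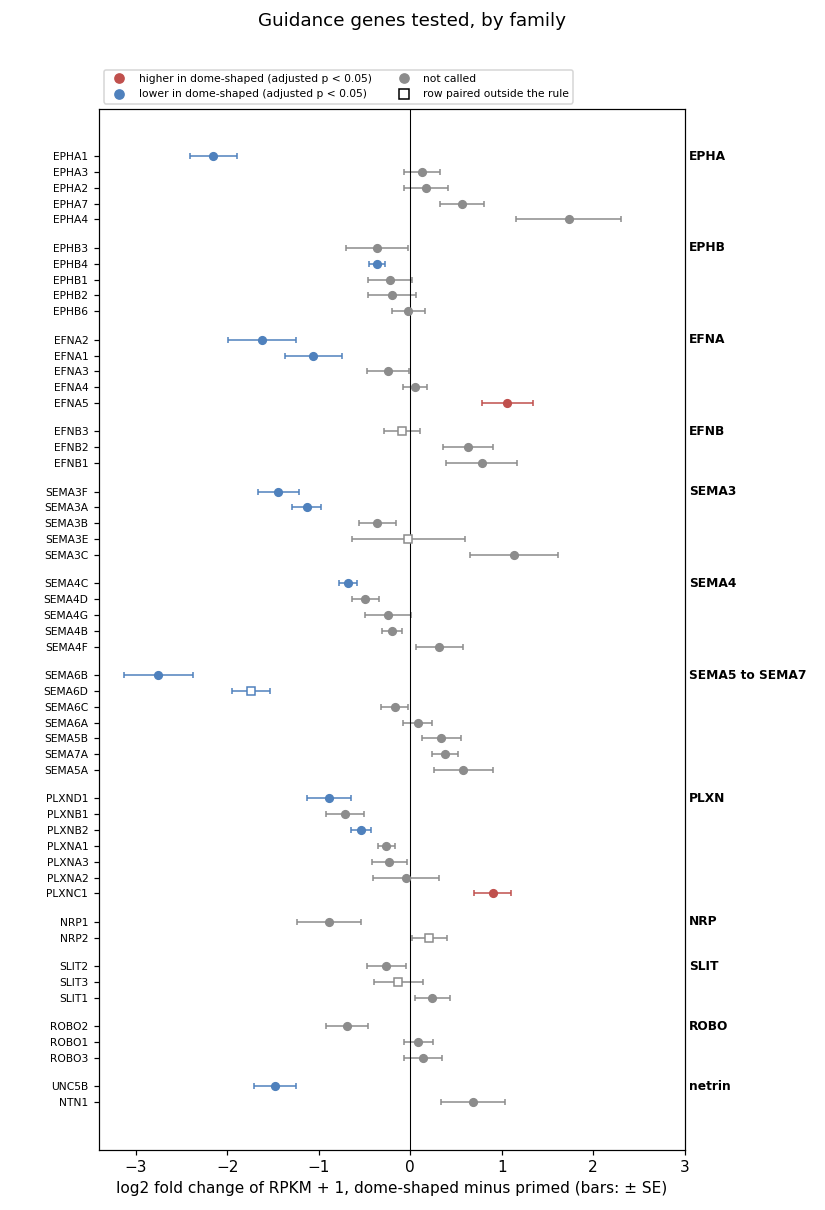
Log2 fold change of RPKM + 1 (horizontal axis, dome-shaped minus primed, bars ± SE) of the tested guidance genes, grouped by family and ordered within it. EPHA1 at -2.15 and SEMA6B at -2.75 lie farthest to the left, and EPHA4 at 1.73, which was not called, farthest to the right.

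Among Eph receptors, EPHA1 was the gene with the largest difference that passed the test. EPHA1, an A-class receptor found in epithelia, had 5.96, 13.4, 13.2 and 17 RPKM in dome-shaped replicates 1 to 4, against 55.8, 59.6, 58.5 and 47.8 RPKM in primed replicates 1 to 4. Every dome-shaped library lay far below every primed one, with means of 12.4 ± 4.64 RPKM in dome-shaped and 55.4 ± 5.35 RPKM in primed ESCs (SD, n = 4 each; log2 fold change -2.15, SE 0.26, adjusted p = 0.00213). EPHB4, the receptor of ephrin-B2 that marks veins, was the most abundant receptor of the set. It stood at 51.1, 60.8, 55.9 and 68.1 RPKM in dome-shaped libraries, against 75.4, 73.2, 78.3 and 74.1 RPKM in primed libraries. The groups did not overlap, but the difference was small (log2 fold change -0.36, SE 0.09, adjusted p = 0.0329). Its call was lost without dome-shaped replicate 2 or 3 or any single primed library (adjusted p 0.0102 to 0.0858 over the 8 fits).

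EPHA4 binds ephrins of both classes and takes part in boundary formation in the hindbrain. It had 25.7, 27.8, 45.4 and 5.08 RPKM in dome-shaped replicates 1 to 4, against 2.66, 8.09, 7.19 and 5.55 RPKM in primed libraries. Replicates 1 to 3 exceeded every primed library and replicate 4 lay within the primed range, and the difference did not pass the test (log2 fold change 1.73, SE 0.57, adjusted p = 0.0714). EPHA2 averaged 19.5 ± 6.37 RPKM in dome-shaped and 16.8 ± 3.42 RPKM in primed ESCs, and EPHA7 17 ± 6.31 and 10.8 ± 2.31 RPKM (SD, n = 4 each; adjusted p = 0.673 and 0.14). The remaining tested Eph receptors, EPHA3, EPHB1, EPHB2, EPHB3 and EPHB6, had group means between 0.78 and 9.72 RPKM and were not called. EPHA5 was below the filter, at 0.0266 to 0.0652 RPKM in dome-shaped and 0.00935 to 0.0383 RPKM in primed libraries.

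The make-up of the EphA family differed between the groups while its summed level overlapped. The 6 EphA genes summed to 56.7 to 96.1 RPKM in dome-shaped and 81.9 to 96.4 RPKM in primed libraries. EPHA1 supplied 10.5%, 14.7%, 13.7% and 26.5% of that sum in dome-shaped libraries, against 59.7%, 61.8%, 64% and 58.3% in primed ones. EPHA4 supplied 45.4%, 30.4% and 47.3% in dome-shaped replicates 1 to 3 and 7.9% in replicate 4, against 2.85% to 8.39% in primed libraries. EPHA4 was the largest component in dome-shaped replicates 1 to 3 and EPHA2, with 41.4%, in replicate 4, against EPHA1 in every primed library.

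**Figure D2:**
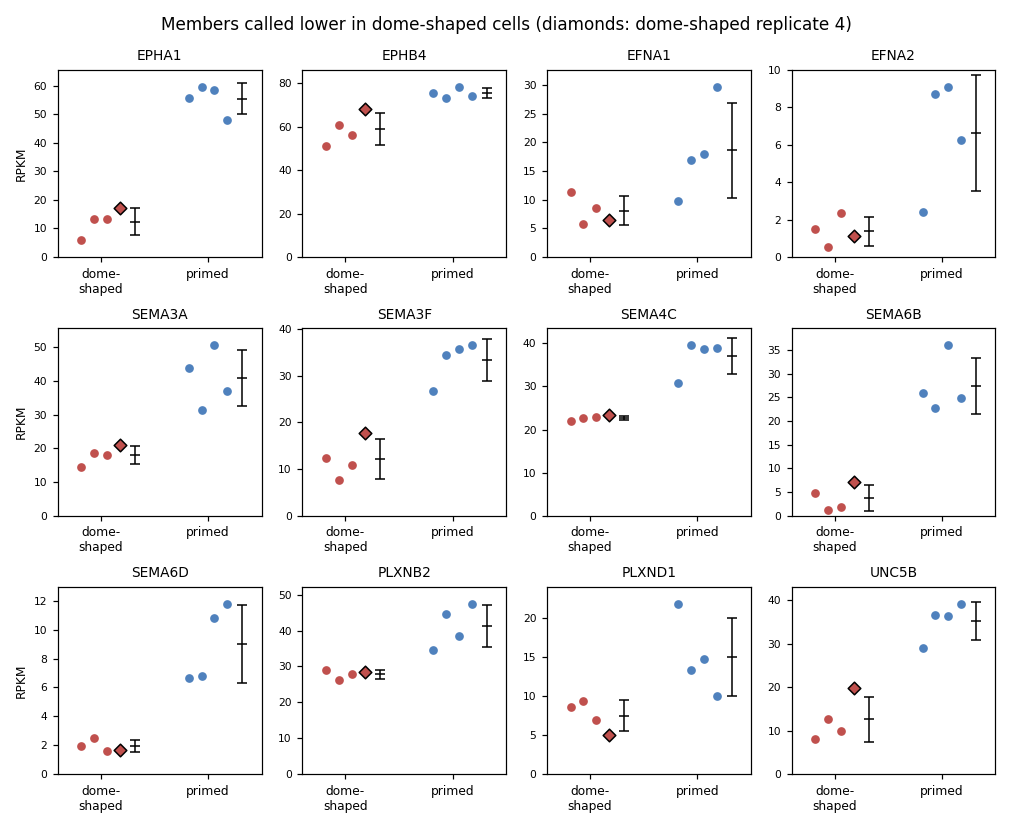
RPKM (vertical axes, from 0) per library of the 11 genes called lower in dome-shaped ESCs and of SEMA6D, which was paired outside the rule; black bars give the mean ± SD of 4 libraries and diamonds mark dome-shaped replicate 4. The groups overlap only for EFNA1, whose primed replicate 1 (9.81 RPKM) lies below dome-shaped replicate 1 (11.4 RPKM).

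The A-class ephrins moved in both directions. EFNA5, a repellent of growing axons and a ligand of EPHA4, had 39.8, 27.5, 42.5 and 18.8 RPKM in dome-shaped replicates 1 to 4, against 9.32, 13.9, 15.2 and 20.2 RPKM in primed libraries. Replicates 1 to 3 lay above all primed libraries and replicate 4 inside their range (log2 fold change 1.06, SE 0.28, adjusted p = 0.0367). The call was lost without dome-shaped replicate 1, 2 or 3 or primed replicate 1, 2 or 3 (adjusted p 0.0105 to 0.0948). EFNA2, best known from the retinal map, was low and fell further, with 1.48, 0.551, 2.36 and 1.1 RPKM in dome-shaped libraries, against 2.4, 8.73, 9.11 and 6.28 RPKM in primed libraries. These groups touched without overlapping, since dome-shaped replicate 3 and primed replicate 1 were nearly equal (log2 fold change -1.62, SE 0.37, adjusted p = 0.021). Without dome-shaped replicate 2 or primed replicate 2, 3 or 4 it was not called (adjusted p up to 0.0626).

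EFNA1, an ephrin of endothelium and epithelia induced by inflammatory cytokines, had 11.4, 5.7, 8.61 and 6.52 RPKM in dome-shaped libraries, against 9.81, 16.9, 18 and 29.7 RPKM in primed libraries. It fell by 1.06 on the log2 scale (SE 0.31, adjusted p = 0.0485), and the call was lost without dome-shaped replicate 2, 3 or 4 or primed replicate 2, 3 or 4 (adjusted p 0.0168 to 0.122). EFNA4, a broadly expressed ephrin, had 18.6, 25.5, 26.9 and 25.5 RPKM in dome-shaped libraries, against 20.2, 24.3, 22.9 and 24.9 RPKM in primed libraries. The groups overlapped (log2 difference 0.05, SE 0.13, adjusted p = 0.816). EFNA3 averaged 3.52 ± 1.46 and 4.16 ± 0.804 RPKM (adjusted p = 0.528). EFNA1, EFNA3 and EFNA4 follow one another in the gene order of assembly T2T-MFA8v1.1, so of these neighbours EFNA1 alone was called; whether its change differed from theirs was not tested. EFNA5 supplied 33.6% to 51.9% of the summed A-class ephrin RPKM in dome-shaped libraries, against 20.4% to 23.4% in primed libraries.

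Neither B-class ephrin passed the test. EFNB2, the ligand of EPHB4 that marks arteries, had 22.5, 49.3, 33.9 and 25.2 RPKM in dome-shaped libraries, against 31.1, 18.7, 14.9 and 17.6 RPKM in primed libraries. Primed replicate 1 reached into the dome-shaped range (log2 fold change 0.63, SE 0.27, adjusted p = 0.149). EFNB1, mutated in craniofrontonasal syndrome in humans, averaged 26.9 ± 12.8 RPKM in dome-shaped and 13.6 ± 2.59 RPKM in primed ESCs (adjusted p = 0.204). EFNB3 averaged 8.57 ± 2.51 and 8.96 ± 1.2 RPKM (SD, n = 4 each; adjusted p = 0.795).

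Secreted class 3 semaphorins were lower in sum in every dome-shaped library. The 5 genes found, SEMA3A, SEMA3B, SEMA3C, SEMA3D and SEMA3F, together had 43.3, 47.4, 40.9 and 47.2 RPKM in dome-shaped libraries, against 91.3, 78.2, 98.1 and 87.4 RPKM in primed libraries. SEMA3A, which collapses growth cones through neuropilin 1, had 14.4, 18.7, 17.9 and 20.9 RPKM in dome-shaped libraries, against 43.9, 31.4, 50.6 and 37.1 RPKM in primed libraries. No value overlapped, and SEMA3A fell by 1.13 on the log2 scale (SE 0.16, adjusted p = 0.00382). SEMA3F, which acts through neuropilin 2, had 12.3, 7.62, 10.9 and 17.8 RPKM in dome-shaped libraries, against 26.7, 34.6, 35.8 and 36.6 RPKM in primed libraries. Again the groups were apart (log2 fold change -1.44, SE 0.22, adjusted p = 0.00485).

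SEMA3C, which guides neural crest cells into the cardiac outflow tract, went the other way without passing the test. It stood at 5.44, 9.65, 4.05 and 1.45 RPKM in dome-shaped replicates 1 to 4, against 3.89, 1.65, 0.427 and 0.991 RPKM in primed libraries (log2 fold change 1.13, SE 0.48, adjusted p = 0.144). SEMA3B averaged 9.13 ± 2.17 RPKM in dome-shaped and 12 ± 2.96 RPKM in primed ESCs (adjusted p = 0.241). SEMA3D was below the filter, at 0.17 to 0.471 RPKM in dome-shaped and 0.568 to 1.12 RPKM in primed libraries. SEMA3E, the ligand of plexin D1, averaged 3.04 ± 2.36 and 3.34 ± 3.23 RPKM (SD, n = 4 each; adjusted p = 0.983).

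Of the membrane-bound semaphorins, SEMA4C and SEMA6B were lower. SEMA4C, a ligand of plexin B2, had 22, 22.6, 22.9 and 23.3 RPKM in dome-shaped libraries, against 30.8, 39.6, 38.8 and 39 RPKM in primed libraries. The dome-shaped values were tightly grouped, with an SD of 0.542 RPKM, and all lay below the primed ones (log2 fold change -0.68, SE 0.10, adjusted p = 0.00382). SEMA6B, a transmembrane ligand of A-class plexins, had the largest fall of the set, with 4.83, 1.17, 1.9 and 7.17 RPKM in dome-shaped libraries, against 26, 22.7, 36 and 24.8 RPKM in primed libraries. Its log2 fold change was -2.75 (SE 0.38, adjusted p = 0.0037). The SEMA6B row was short, at 774 bases. A separate row of 926 bases matched to SEMA6B, outside the annotated genes, gave -2.06 ± 0.25 on the log2 scale (SE, adjusted p = 0.00213), with 2.22 to 5.64 RPKM in dome-shaped and 16.2 to 24.6 RPKM in primed libraries. Both rows were measured in the same libraries, so the second is not independent support. SEMA6D, a ligand of plexin A1 in the heart, stood at 1.95, 2.49, 1.61 and 1.67 RPKM in dome-shaped libraries, against 6.65, 6.8, 10.8 and 11.8 RPKM in primed libraries. It fell by 1.74 on the log2 scale (SE 0.21, adjusted p = 0.00213), and with it 12 genes were lower.

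SEMA4D, a ligand of plexin B1, did not overlap between the groups, at 14.3 ± 2.73 RPKM in dome-shaped and 20.2 ± 1.89 RPKM in primed ESCs, but missed the threshold (log2 fold change -0.49, SE 0.15, adjusted p = 0.0537). SEMA4B, SEMA4F and SEMA4G were not called, with group means of 2.47 to 25.6 RPKM, and SEMA4A was below the filter, at 0.313 to 1.54 RPKM in dome-shaped and 0.534 to 1.03 RPKM in primed libraries. SEMA7A, a lipid-anchored semaphorin and the ligand of plexin C1, averaged 13.6 ± 2.44 RPKM in dome-shaped and 10.1 ± 0.894 RPKM in primed ESCs (adjusted p = 0.0991). SEMA5B averaged 12.2 ± 3.14 and 9.29 ± 1.7 RPKM and SEMA6C 2.51 ± 0.185 and 2.97 ± 0.553 RPKM (SD, n = 4 each; adjusted p = 0.292 and 0.47). The SEMA6A row that the rule took, of 471 bases, averaged 6.28 ± 0.4 RPKM in dome-shaped and 5.98 ± 1.41 RPKM in primed ESCs (adjusted p = 0.763). A row of 3632 bases that only later matches named SEMA6A stood at 77.6, 110, 124 and 85.8 RPKM in dome-shaped libraries, against 110, 127, 125 and 111 RPKM in primed libraries. On that row, whose direction differed from the short one, dome-shaped replicate 3 lay within the primed range and the other dome-shaped libraries below it (log2 fold change -0.27, SE 0.14, adjusted p = 0.218), and its level was above that of any gene found by the rule.

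Among plexins, the semaphorin receptors, PLXNB2 and PLXND1 were lower and PLXNC1 was higher. PLXNB2, a receptor of SEMA4C, had 28.9, 26.1, 27.8 and 28.4 RPKM in dome-shaped libraries, against 34.6, 44.5, 38.4 and 47.5 RPKM in primed libraries. All dome-shaped values were below all primed values (log2 fold change -0.54, SE 0.11, adjusted p = 0.0123). PLXND1, the receptor that patterns vessels in response to SEMA3E, had 8.64, 9.37, 6.93 and 5.02 RPKM in dome-shaped libraries, against 21.8, 13.3, 14.7 and 9.96 RPKM in primed libraries. The groups lay close, at 9.37 and 9.96 RPKM where they came nearest (log2 difference -0.89, SE 0.24, adjusted p = 0.0401), and PLXND1 kept its call only without primed replicate 4 among the 8 fits that left out a library (adjusted p 0.0344 to 0.0936). PLXNC1, a receptor of SEMA7A, stood at 5.71, 6.99, 6.59 and 3.9 RPKM in dome-shaped libraries, against 3.46, 2.5, 2 and 2.54 RPKM in primed libraries. This was the 1 tested gene of the set with every dome-shaped library above every primed library (log2 fold change 0.90, SE 0.20, adjusted p = 0.0187). The call was lost without dome-shaped replicate 2 or 3 or primed replicate 2 (adjusted p 0.00573 to 0.0575).

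PLXNB1, a receptor of SEMA4D, had 17.9, 26.7, 29.1 and 30.6 RPKM in dome-shaped libraries, against 29.5, 46.9, 43.6 and 54.1 RPKM in primed libraries. Only primed replicate 1 and dome-shaped replicate 4 overlapped, and the difference missed the threshold (log2 fold change -0.71, SE 0.21, adjusted p = 0.0512). It passed without dome-shaped replicate 4 or primed replicate 1 (adjusted p = 0.0454 and 0.0185). PLXNA1, PLXNA2 and PLXNA3, receptors that class 3 and class 6 semaphorins use, had group means of 3.65 to 29.6 RPKM and were not called. NRP1, the co-receptor of SEMA3A and of VEGF, stood at 1.74, 5.86, 1.46 and 1.99 RPKM in dome-shaped libraries, against 8.08, 5.1, 6.06 and 3.22 RPKM in primed libraries. Dome-shaped replicate 2 lay within the primed range (log2 fold change -0.89, SE 0.35, adjusted p = 0.115), and without it NRP1 was lower (log2 fold change -1.23, adjusted p = 0.0328). NRP2, the co-receptor of SEMA3F, averaged 20.8 ± 6.92 RPKM in dome-shaped and 17.2 ± 2.19 RPKM in primed ESCs on a row of 684 bases (SD, n = 4 each; adjusted p = 0.484).

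The SLIT and ROBO genes were not called. SLIT1, a repellent of the midline, had 30.3, 23.8, 16.6 and 16.4 RPKM in dome-shaped libraries, against 15.4, 16.7, 18.8 and 20 RPKM in primed libraries (log2 fold change 0.24, SE 0.19, adjusted p = 0.421). Its row, of 930 bases, holds part of the gene. ROBO1, a SLIT receptor, had 14, 19.2, 13.7 and 21.3 RPKM in dome-shaped libraries, against 14.9, 16.9, 13.4 and 18.1 RPKM in primed libraries, and the groups overlapped almost fully (log2 fold change 0.09, SE 0.16, adjusted p = 0.749). ROBO2 averaged 2.79 ± 1.26 RPKM in dome-shaped and 4.96 ± 0.903 RPKM in primed ESCs (adjusted p = 0.0726). SLIT2 averaged 4.11 ± 1.42 and 4.98 ± 0.87 RPKM, ROBO3 1.36 ± 0.62 and 1.1 ± 0.284 RPKM and SLIT3 1.68 ± 0.881 and 1.88 ± 0.728 RPKM (SD, n = 4 each; adjusted p = 0.437, 0.677 and 0.767).

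The netrin receptor UNC5B was lower in dome-shaped ESCs. UNC5B, which mediates repulsion by netrin 1 and is a dependence receptor in vessels and tumours, had 8.17, 12.6, 9.8 and 19.9 RPKM in dome-shaped libraries, against 29.1, 36.5, 36.3 and 39.2 RPKM in primed libraries. The groups were apart, replicate 4 being the highest of the dome-shaped libraries (log2 fold change -1.48, SE 0.23, adjusted p = 0.00554). NTN1, the netrin 1 gene, averaged 6.3 ± 2.53 RPKM in dome-shaped and 3.56 ± 1.61 RPKM in primed ESCs (SD, n = 4 each; log2 fold change 0.69, SE 0.35, adjusted p = 0.215). DCC, the attractive netrin receptor, was below the filter, at 0.0804 to 0.306 RPKM in dome-shaped and 0.0142 to 0.056 RPKM in primed libraries.

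**Figure D3:**
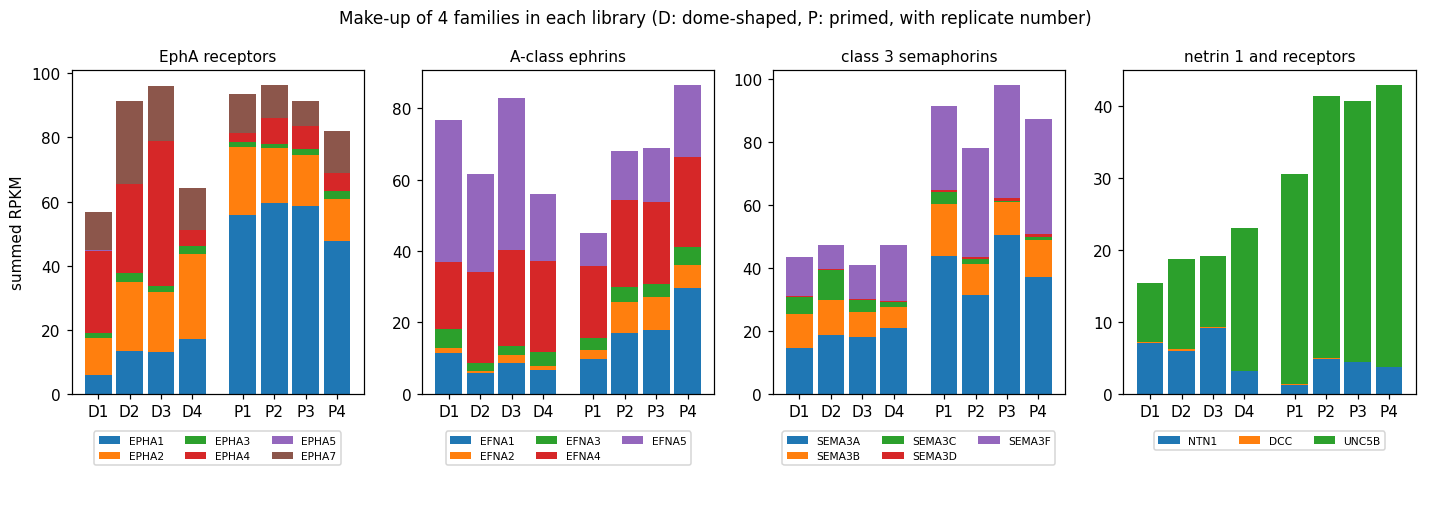
Summed RPKM (vertical axes) of EphA receptors, A-class ephrins, class 3 semaphorins and netrin 1 with DCC and UNC5B in each library, stacked by gene. Dome-shaped replicates D1 to D4 stand left of primed replicates P1 to P4. NEO1 and the other UNC5 receptors are not in the netrin bars. EPHA1 fills 10.5% to 26.5% of the EphA bar in dome-shaped and 58.3% to 64% in primed libraries, and the class 3 semaphorin bars reach 40.9 to 47.4 RPKM in dome-shaped and 78.2 to 98.1 RPKM in primed libraries.

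For 4 of the 47 genes, EPHA4, EFNA5, SEMA3C and NTN1, dome-shaped replicates 1 to 3 lay above every primed library and replicate 4 within the primed range, a pattern that 5.52% of all genes tested had. The reverse, replicates 1 to 3 below, was seen for PLXNB1 and ROBO2, 2 of the 47, against 2.94% of all genes tested. Without replicate 4, 6 of the 47 tested genes were higher, against 8.26% of all genes tested, namely EPHA4, EFNA5, EFNB1, SEMA3C, SEMA5A and PLXNC1. Replicate 4 was singled out because its values stood apart. Calls gained without it, for genes in which it differed from the other dome-shaped libraries, follow in part from that choice. EFNB1 had 35.1, 27.4, 36.5 and 8.7 RPKM in dome-shaped replicates 1 to 4, against 16.5, 10.3, 14.4 and 13 RPKM in primed libraries. SEMA5A, a semaphorin with thrombospondin repeats that can attract or repel, had 14.3, 14.9, 13.7 and 4.6 RPKM in dome-shaped replicates 1 to 4, against 6.87, 6.56, 8.64 and 6.02 RPKM in primed libraries. In replicate 4 both genes were below every primed library, while in replicates 1 to 3 they were above. The log2 fold changes without replicate 4 were 2.34 for EPHA4, 1.29 for EFNA5, 1.23 for EFNB1, 1.51 for SEMA3C, 0.94 for SEMA5A and 1.05 for PLXNC1 (adjusted p = 0.00313, 0.0105, 0.0028, 0.0431, 0.00358 and 0.00573).

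**Figure D4:**
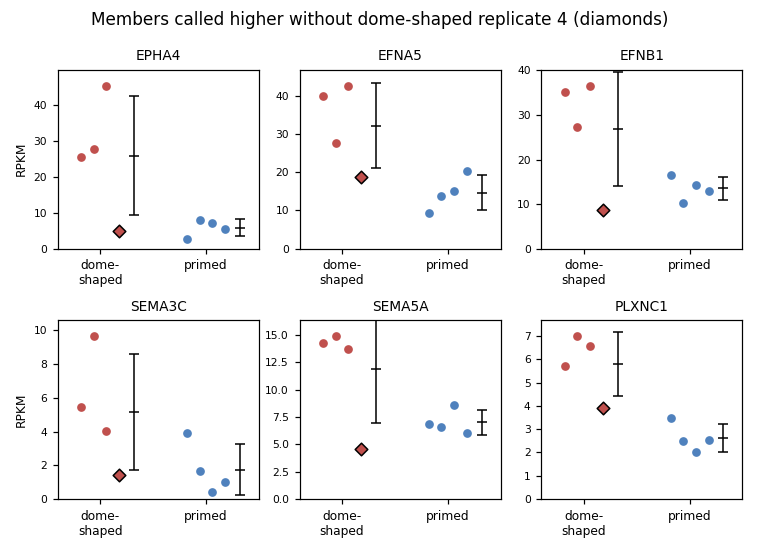
RPKM (vertical axes, from 0) per library of the 6 genes called higher once dome-shaped replicate 4 was left out; black bars give the mean ± SD of all 4 libraries and diamonds mark dome-shaped replicate 4. The genes were selected by that removal. In replicate 4 EPHA4 (5.08 RPKM), EFNB1 (8.7 RPKM) and SEMA5A (4.6 RPKM) sit at or below the primed level.

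Among the lower genes, calls were both lost and gained without replicate 4, and 12 of the 47 were lower, against 9.24% of all genes tested. EFNA1 (adjusted p = 0.0826) and PLXND1 (adjusted p = 0.0652) were no longer called, and SEMA4D, PLXNB1 and ROBO2 were (adjusted p = 0.0453, 0.0454 and 0.0113). EPHA1, EPHB4, SEMA3A, SEMA3F, SEMA4C, SEMA6B and UNC5B were higher in replicate 4 than in any other dome-shaped library and still below every primed library. For SEMA4C the margin was small, at 23.3 RPKM against 22 to 22.9 RPKM. For EFNA1, EFNA2, PLXNB2 and PLXND1 another dome-shaped library was the highest. The share over all lower genes was not counted.

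Replicate 4 also stood apart from the other dome-shaped libraries for some marker genes. Of 10 neural genes 9 had a row, 5 of them under 1 RPKM in every library, and the sum of the 9 in dome-shaped libraries was 88.3, 62.6, 56.4 and 6.35 RPKM, against 7.44 to 13.9 RPKM in primed libraries. Most of that sum came from STMN2, a neuronal stathmin, and TUBB3, a neuronal tubulin. STMN2 had 72.8, 29.8, 40 and 1.44 RPKM in dome-shaped libraries, against 1.27 to 6.22 RPKM in primed libraries. TUBB3 had 12.8, 30.4, 14.5 and 3.4 RPKM in dome-shaped libraries, against 2.92 to 5.74 RPKM in primed libraries. PAX6 stood at 0.0356 to 0.351 RPKM in dome-shaped and 0.0313 to 1.55 RPKM in primed libraries. Neither STMN2 nor TUBB3, the 2 neural genes tested, was called (adjusted p = 0.0897 and 0.115). The neural crest gene PAX3 had 4.9, 11.1, 6.68 and 0.0479 RPKM in dome-shaped libraries, against 0.0763 to 0.618 RPKM in primed libraries, while SOX10 stayed under 1 RPKM throughout. Of the 8 neural crest genes 5 were tested, and FOXD3 and ERBB3 were lower, against 7.96% of all genes tested. The 8 summed to 20.1 to 42.9 RPKM in dome-shaped and 62.5 to 121 RPKM in primed libraries. FOXD3 had 1.13, 4.54, 2.72 and 25.5 RPKM in dome-shaped libraries, against 25.4 to 39.3 RPKM in primed libraries, so replicate 4 reached the primed range. Most of the primed sum came from FOXD3 and ERBB3. TFAP2A added 52.8 RPKM in primed replicate 4, against 0.725 RPKM in primed replicate 1. SNAI2 went the other way, at 1.09 to 3.33 RPKM in dome-shaped and 0.181 to 1.02 RPKM in primed libraries, but was not called (adjusted p = 0.0991). The sum of the 8 pluripotency genes lay nearer the primed libraries in replicate 4. It was 1790, 1784, 1882 and 2605 RPKM in dome-shaped replicates 1 to 4, against 2572 to 3106 RPKM in primed libraries. Replicate 4 was the highest dome-shaped library for LIN28B, DNMT3B, SALL4, TDGF1 and NANOG, the last nearly equal in replicate 2. For SOX2, LIN28A and ZFP42 it lay within the range of the other dome-shaped libraries. DNMT3B had 288, 351, 266 and 667 RPKM in dome-shaped libraries, against 533 to 852 RPKM in primed libraries. TDGF1, the NODAL co-receptor, had 21.8, 80.1, 57 and 273 RPKM in dome-shaped libraries, against 317 to 515 RPKM in primed libraries. The part of these markers in the values of EPHA4, EFNA5, EFNB1, SEMA3C and SEMA5A was not tested.

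Of 9 endothelial genes 8 had a row and summed to 26.3 to 35 RPKM in dome-shaped and 6.99 to 17.8 RPKM in primed libraries. TEK, the angiopoietin receptor and the 1 gene called among the 4 tested, made most of the dome-shaped sum at 16.8 to 23.5 RPKM, against 0.553 to 3.79 RPKM in primed libraries, while PECAM1 stood at 0.223 to 0.851 RPKM in dome-shaped and 0.552 to 1.99 RPKM in primed libraries and ERG was at or near 0. Of the 9 fibroblast genes 6 were tested, and PDGFRB was lower, against 7.96% of all genes tested. The 9 summed to 51.5 to 70.8 RPKM in dome-shaped and 70.3 to 256 RPKM in primed libraries, highest in primed replicate 1. COL3A1 and PDGFRA went the other way in dome-shaped replicates 1 to 3, which exceeded every primed library, but were not called (adjusted p = 0.2 and 0.491). COL3A1 had 3.94, 7.09, 5.7 and 0.218 RPKM in dome-shaped libraries, against 0.0577 to 3.91 RPKM in primed libraries. PDGFRA had 2.34, 5.34, 2.31 and 0.164 RPKM, against 0.339 to 2.1 RPKM. COL1A1 stood at 14 to 44.9 RPKM in dome-shaped and 38.8 to 136 RPKM in primed libraries, and DCN at no more than 0.126 RPKM in any library. Primed replicate 1 was also the highest primed library for EPHA2, EFNB1, EFNB2, SEMA3B, SEMA3C, SEMA4A, SEMA7A, PLXNC1, PLXND1, NRP1, SLIT3 and DCC. For all other guidance genes another primed library was the highest, and the share over all genes was not counted. The part of these fibroblast markers in the values of the listed genes was not tested.

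Related cues and receptors outside the 56 genes gave 2 higher and 2 lower among 14 tested of 25 paired with a row, against 6.38% and 7.96% of all genes tested, with a median log2 fold change of -0.07. RGMB, a repulsive guidance molecule that binds neogenin and BMPs, averaged 32.9 ± 14.6 RPKM in dome-shaped and 5.8 ± 1.07 RPKM in primed ESCs (log2 fold change 2.20, SE 0.33, adjusted p = 0.00459). DRAXIN, a secreted repellent that binds DCC and restrains WNT signalling, averaged 65.3 ± 16.1 RPKM in dome-shaped and 27.4 ± 5.82 RPKM in primed ESCs (log2 fold change 1.20, SE 0.21, adjusted p = 0.0078). NEO1, the neogenin receptor of netrins and repulsive guidance molecules, was lower at 32.2 ± 1.04 RPKM in dome-shaped and 44.2 ± 4.36 RPKM in primed ESCs (adjusted p = 0.013). NTN4, a laminin-binding netrin, was lower at 2.69 ± 0.995 RPKM in dome-shaped and 8.27 ± 2.81 RPKM in primed ESCs (SD, n = 4 each; adjusted p = 0.0144). Each of these 4 genes was apart between the groups, replicate 4 included.

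Of 46 intracellular effectors, 44 had a row and 41 were tested, of which 3 were higher (FARP1, RND3 and SRGAP2) and 5 lower (LIMK1, PAK3, GIPC1, DPYSL4 and RAC1), against 6.38% and 7.96% of all genes tested, with a median log2 fold change of -0.11. FARP1, a RhoGEF that binds A-class plexins, averaged 40.2 ± 2.12 RPKM in dome-shaped and 29.2 ± 1.5 RPKM in primed ESCs (log2 fold change 0.45, SE 0.08, adjusted p = 0.00745). LIMK1, the kinase that inactivates cofilin, averaged 46.6 ± 5.98 RPKM in dome-shaped and 70.4 ± 6.8 RPKM in primed ESCs (log2 fold change -0.59, SE 0.11, adjusted p = 0.01). PAK3, a kinase downstream of RAC and CDC42, averaged 2.36 ± 1.19 and 5.75 ± 0.509 RPKM, and GIPC1, an adaptor that binds the neuropilin 1 tail, 31.9 ± 2 and 43.4 ± 5.02 RPKM (SD, n = 4 each; adjusted p = 0.0169 and 0.023).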

How the data were processed

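RNA was measured in 4 dome-shaped and 4 primed ESC libraries. The authors deposited RPKM values per gene, scaled by length and depth, with protein matches and their percent identity as deposited by the authors. Per the submitters' processing notes, Bowtie2 2.0.6, TopHat2 2.0.9 and HTSeq 0.6.1 were used; the genome build is not given in the sources used here, and no strand-specific step is recorded. The columns of dome-shaped replicates 1 to 3 carry shortened titles and were matched to the titles that hold them. Of 33138 rows, 17 were blank and left out. Between 71.5% and 73.5% of values under 50 reads came out whole within 0.01 of a read, too few for a count test.

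Genes that reached 1 RPKM in 4 or more of the 8 libraries were compared on log2(RPKM + 1) with limma 3.58.1 in R 4.3.3 (lmFit, then eBayes with trend; two-sided, group as the 1 term), checked on simulated data. P-values were adjusted by Benjamini-Hochberg across the 15597 genes, and 0.05 was the threshold. Fold changes on this scale understate changes of low genes. The genes and lists were chosen with earlier results of these data known, so counts over them carry no test. Library values are given for genes that were called, changed by at least 1 on the log2 scale or led their family; EFNB1 and SEMA5A were added after their values were seen. Symbols of other genes came from the table, RefSeq accessions (T2T-MFA8v1.1) or protein names, and a close copy may share reads. Replicate numbers are names only.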

Additional observations from a re-analysis of the deposited data

Results flagged for a closer look

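In 6 of 94 groups of 4 libraries, 1 library lay far from the other 3, by a rule that chance meets in about 1 group in 20. SEMA5A stood at 4.6 RPKM in dome-shaped replicate 4, against 13.7 to 14.9 RPKM in the other dome-shaped libraries. NRP1 stood at 5.86 RPKM in dome-shaped replicate 2, against 1.46 to 1.99 RPKM in the others. SEMA4F stood at 6.27 RPKM in dome-shaped replicate 1, against 2.27 to 2.81 RPKM in the others. The short SEMA6A row stood at 5.68 RPKM in dome-shaped replicate 1, against 6.48 to 6.49 RPKM in the others. PLXNA1 stood at 27.3 RPKM in dome-shaped replicate 3, against 23.2 to 23.8 RPKM in the others. SEMA4C stood at 30.8 RPKM in primed replicate 1, against 38.8 to 39.6 RPKM in the other primed libraries.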

How the results depend on the processing

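The 2 higher and 11 lower guidance genes became 1 and 9 with no filter, 1 and 10 among genes averaging 5 RPKM or more, 1 and 3 among genes named in the table alone, and 0 to 6 and 7 to 12 when 1 library was left out (6 and 12 without dome-shaped replicate 4; 0 higher without dome-shaped replicate 2 or 3 or primed replicate 2; 1 higher without primed replicate 1 or 3; 7 lower without primed replicate 2 or 3). Over all genes tested, 995 were higher and 1242 lower. Leaving out 1 library gave 381 to 1289 higher and 655 to 1441 lower. Both counts moved by over 1.5 times without dome-shaped replicate 2 (399 and 689) or 3 (442 and 686) or primed replicate 2 (381 and 655) or 4 (487 and 757). Without primed replicate 3 the higher count moved by over 1.5 times (516) and the lower count did not (834). The other settings, the replicate block aside, moved these counts by at most 1.5 times, the largest move being to 828 lower among genes averaging 5 RPKM or more. No called gene changed direction in any setting. Of the uncalled genes given library by library or paired with a second row, EFNA4 changed sign without dome-shaped replicate 3 (-0.0037) or primed replicate 1, ROBO1 without dome-shaped replicate 4 and SEMA6A without primed replicate 4; over the 8 fits their log2 fold changes ran from -0.0085 to 0.17, -0.02 to 0.18 and -0.04 to 0.20. SEMA6A was -0.27 on its longer row, an alternative chosen after seeing the data. The cause was not tested. With no filter EFNA1, EFNA5 and PLXND1 were not called (adjusted p = 0.0817, 0.0651 and 0.0687), and PLXNB1 was called with quantile normalization and median-of-ratios scaling (adjusted p = 0.0499 and 0.0477). SEMA4D was called with median-of-ratios scaling and without dome-shaped replicate 1, and SEMA7A without dome-shaped replicate 1 (adjusted p = 0.0322).

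With the number after CES in the titles as a replicate block, 1 guidance gene was higher and 9 lower, and 303 and 593 over all genes; EPHB4, EFNA1 and EFNA5 were not called (adjusted p = 0.0973, 0.137 and 0.0926). The 4 libraries of a group carry 3 numbers. Same-numbered libraries of different groups did not all deviate together (correlations -0.098 to 0.125 across genes; same-numbered libraries within a group were not compared), and not every library correlated best with its own number.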
